A study of Mus musculus with 23 samples.

Results

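Cd36 and 9 other genes of hepatic fatty acid uptake were followed across the livers of male mice given the PXR ligand pregnenolone 16α-carbonitrile (PCN) or vehicle. The genes were Cd36, Slc27a2, Slc27a4, Fabp1, Fabp2, Fabp4, Fabp5, Vldlr, Lpl and Lipc, and each non-control probe carrying one of these names on the Agilent 1-colour mouse array was used. This gave 18 probes, of the 56605 probes and 37074 gene names on the array. All 18 probes passed the filter on dim signals, which left 32087 probes of 21056 genes.

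RNA came from whole livers of C57BL/6J wild-type (WT) mice and of Pxr-/- mice, which lack the nuclear receptor PXR (gene Nr1i2) and were backcrossed on the same strain. PCN-treated mice received 100 mg/kg in corn oil by daily intraperitoneal injection over 4 days, control (CONT) mice of both genotypes received corn oil alone, and livers were taken at ZT6, 6 h after the last injection, from mice with free access to food (fed, per the labels, and semi-fasted at that hour, per the study's text). The 23 arrays analysed here, 1 mouse each, came from 6 WT CONT and 5 WT PCN mice and from 6 mice in either Pxr-/- group. All mice were acclimatized for 2 weeks. WT mice were purchased at 6 weeks of age and Pxr-/- mice, for which the sources used here state no separate age, were bred in the facility, so genotype and colony cannot be told apart. Because the tissue is whole liver, fewer cells of a type and less RNA per cell cannot be told apart either.

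Fatty acids enter hepatocytes along several routes. CD36 is a membrane glycoprotein that binds long-chain fatty acids and oxidised lipoproteins, and the FATP proteins (Slc27 genes) couple uptake to activation by coenzyme A. Inside the cell, fatty acid binding proteins (Fabp genes) carry the ligand through the cytosol, while lipoprotein lipase (Lpl), hepatic lipase (Lipc) and the VLDL receptor (Vldlr) release or deliver the lipid of circulating lipoproteins. Cd36 is known as a gene induced by PXR in liver steatosis models, and Fabp1, Slc27a2 and Fabp2 are known targets of the fasting receptor PPARα.

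The promoters of 7 of the 10 genes were found in the RefSeq table (build GRCm38.p6), and Fabp4, Fabp5 and Lpl were not among its entries. The promoters of Cd36 and of Slc27a2, Fabp1 and Fabp2 are shown, the last 3 because these were the genes lower after PCN in WT mice at an adjusted p of 0.05 or lower, with or without the fold limit. Each sequence is the 250 bases before the start site, 5′ to 3′ on the strand of the gene, with the nuclear receptor hexamer AGGTCA, or its reverse complement TGACCT, in capitals.
Cd36, chr5:17835897-17836146, minus strand: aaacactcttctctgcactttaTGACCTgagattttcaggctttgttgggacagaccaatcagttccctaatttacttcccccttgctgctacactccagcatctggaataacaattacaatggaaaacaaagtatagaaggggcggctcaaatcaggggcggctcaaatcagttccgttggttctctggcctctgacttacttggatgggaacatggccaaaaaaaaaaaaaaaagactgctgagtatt
Slc27a2, chr2:126552774-126553023, plus strand: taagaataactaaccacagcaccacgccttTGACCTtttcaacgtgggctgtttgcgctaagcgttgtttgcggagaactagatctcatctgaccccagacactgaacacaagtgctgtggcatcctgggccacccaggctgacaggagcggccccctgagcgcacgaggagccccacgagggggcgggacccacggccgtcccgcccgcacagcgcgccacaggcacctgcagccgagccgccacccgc
Fabp1, chr6:71199629-71199878, plus strand: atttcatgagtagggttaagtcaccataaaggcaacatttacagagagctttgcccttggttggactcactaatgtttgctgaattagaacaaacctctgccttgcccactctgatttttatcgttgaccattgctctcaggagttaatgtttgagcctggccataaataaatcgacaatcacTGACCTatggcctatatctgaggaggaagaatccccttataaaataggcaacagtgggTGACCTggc
Fabp2, chr3:122894822-122895071, plus strand: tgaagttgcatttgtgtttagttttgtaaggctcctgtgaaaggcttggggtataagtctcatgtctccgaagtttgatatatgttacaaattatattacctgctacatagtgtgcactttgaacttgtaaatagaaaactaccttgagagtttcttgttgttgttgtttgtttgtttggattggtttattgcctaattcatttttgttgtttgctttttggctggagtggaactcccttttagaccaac

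The hexamer, searched on both strands, was found once in the Cd36 window, 228 bases before the start site, and once in the Slc27a2 window, 220 bases before it. The Fabp1 window held it at 67 and 9 bases before the start site, and the Fabp2 window held none. One of the Lipc windows held it as well, and the other Lipc window, both Vldlr windows and that of Slc27a4 did not, so that 4 of the 9 windows of these genes held the hexamer. Of all 32851 mouse promoter windows of this length in the table, 14% held it. Exact direct repeats of the hexamer were rarer. The exact repeat spaced by 1 base (DR1) was in 0.0335% of all windows. The one spaced by 4 bases (DR4), an arrangement PXR is known to bind, was in 0.0152%. No window of these genes held either as an exact match. Repeats with a mismatched base, which receptors can also bind, were not searched, so their absence is not shown. Base composition varied widely, from 35.6% G and C in Fabp2 to 64% in Slc27a2.

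The array carried 1 probe for Cd36, on chromosome 5 from 17288600 to 17288659 on the minus strand (all probe positions are in build mm9), so probes of Cd36 could not be set against each other. Its signal exceeded background clearly on each of the 23 arrays. In WT CONT mice its log2 signal ran from 8.14 through a median of 8.58 to 8.84, and the 5 WT PCN mice read 8.51, 8.52, 8.75, 8.85 and 9.29. In Pxr-/- CONT mice it ran from 7.78 through 8.39 to 8.69, and in Pxr-/- PCN mice from 8.17 through 8.43 to 8.83. All 4 groups overlapped. WT PCN mice averaged highest, 8.78 ± 0.32 (SD, n = 5), followed by WT CONT mice at 8.52 ± 0.26 (n = 6), Pxr-/- PCN mice at 8.48 ± 0.22 (n = 6) and Pxr-/- CONT mice at 8.36 ± 0.34 (n = 6), and no neighbours in this order were separated beyond their spread.

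Differences were estimated with limma over all 32087 probes, with the array washing batch as a term, and a probe was called where its Benjamini-Hochberg adjusted p was 0.05 or lower and its fold change exceeded 1.5. By this rule Cd36 was not called in any comparison. PCN moved its log2 signal by 0.29 in WT mice (95% interval -0.02 to 0.60, limma adjusted p = 0.171) and by 0.12 in Pxr-/- mice (-0.17 to 0.42, adjusted p = 0.679). The difference between these effects was 0.17 (-0.26 to 0.60, adjusted p = 0.766). The intervals for WT mice and for the difference reach just above the fold limit at their upper ends, so a change of that size could not be told from none. Pxr-/- minus WT was -0.16 in CONT mice (-0.45 to 0.14, adjusted p = 0.717) and -0.33 in PCN mice (-0.64 to -0.02, unadjusted p = 0.0387, adjusted p = 0.184). With the values normalized by the authors this last difference was -0.56 with an adjusted p of 0.0200, still under the fold limit. With those values the PCN effect in WT mice was 0.44 (limma adjusted p = 0.0639). Without WT PCN replicate 3 it was 0.41 (adjusted p = 0.0546). The study's text reports that PXR activation significantly affected Cd36. For this it cites a figure of array and qPCR data for selected genes, tested there by analysis of variance. That test has neither the adjustment over all 32087 probes nor the fold limit used here, and qPCR values were not analysed here. The lack of a call for Cd36 therefore does not contradict that report. Within the washing batches the PCN effect in WT mice was 0.39 and 0.18, and in Pxr-/- mice 0.32 and -0.07. Its highest reading of all, 9.29 in WT PCN replicate 2, came from the second batch.

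**Figure D1:**
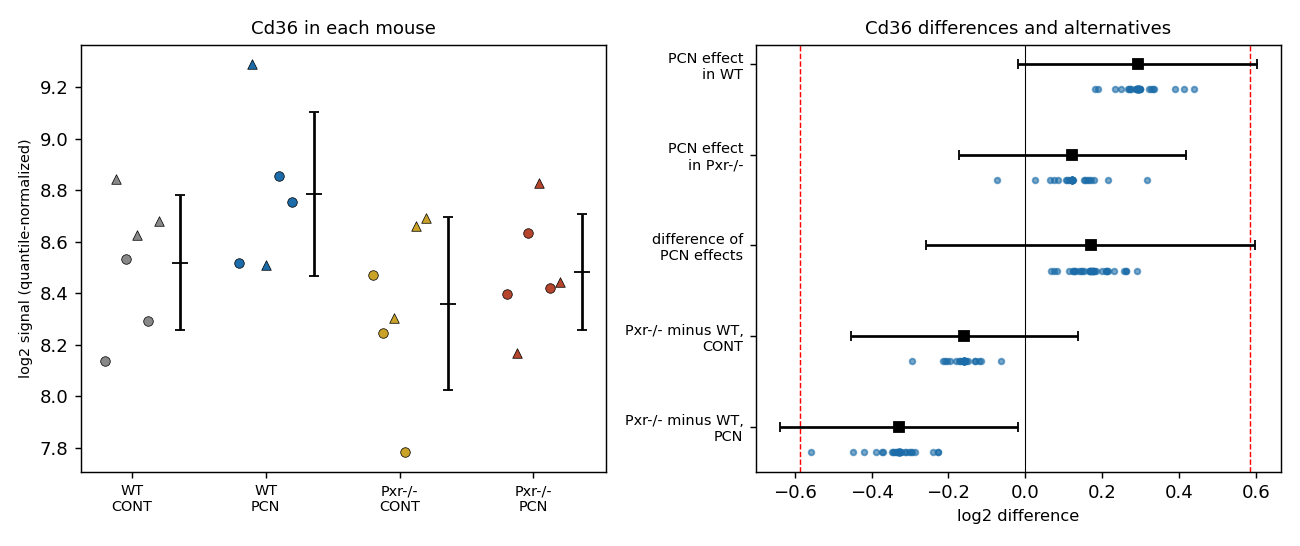
Left, Cd36 log2 signal (quantile-normalized) in each mouse by group, circles for the first and triangles for the second washing batch, with the group mean and SD as bars. Right, the 5 log2 differences with 95% confidence intervals (black squares), the value under each processing alternative (blue points) and the fold limit of 1.5 (dashed red lines), where a reader should see overlapping groups and no alternative past the fold limit.

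Genes that ran most like Cd36 were sought among 15057 genes with a RefSeq symbol, over the 23 arrays with the washing batch removed. The 5 highest Pearson correlations were those of Adamts15 (r = 0.79, Spearman rho = 0.67), a secreted metalloproteinase, Adora3 (r = 0.78, rho = 0.67), an adenosine receptor, Stc2 (r = 0.78, rho = 0.70), a secreted glycoprotein, Lgals1 (r = 0.77, rho = 0.64), a galectin, and Tpx2 (r = 0.76, rho = 0.74), a spindle assembly factor. Without the arrays of Pxr-/- CONT replicate 4 and WT PCN replicate 2, those farthest from the Cd36 median, the coefficients were between 0.62 and 0.72. After the group means were removed they were between 0.62 and 0.69. These are descriptions of the highest of many values, from arrays that share groups, and no test was made. Of the other uptake genes, Fabp4 came closest to Cd36, at rank 220 (r = 0.60), and Slc27a4 was farthest (r = -0.47).

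Of the 10 genes, 2 were called after PCN in WT mice, Fabp4 higher and Fabp2 lower, where 7.07% of all tested genes were called (4.25% higher and 2.83% lower). In Pxr-/- mice 2 were called, Fabp2 and Fabp5, both lower, against 2.55% of all genes (0.95% lower). Taking the probe of highest signal for each gene, 7 genes lay lower and 3 higher in WT mice with a median log2 change of -0.14, beside -0.02 over all probes. The same count in Pxr-/- mice was 8 lower and 2 higher with a median of -0.12, beside -0.01 over all probes. With no fold limit, 4 genes passed in WT mice, Slc27a2 and Fabp1 being added, 2 in Pxr-/- mice and 2 between genotypes among PCN mice, against 28.2%, 8.27% and 10.4% of all genes, and 0 passed for the difference between the PCN effects or between CONT groups, against 1.83% and 0.56%. Groups did not overlap for 3 of the 18 probes after PCN in WT mice (11.7% of all probes) and for 0 in Pxr-/- mice (2.92%) or between CONT groups (0.757%). For the difference between the PCN effects 0 of the 10 were called by limma, where 1.17% of all genes were, while 5 of the 18 probes had an unadjusted p under 0.05. These were the probes of Slc27a2, Fabp2, Fabp4 (both) and Fabp5, so a difference in response between genotypes was not established for any of these genes after adjustment.

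**Figure D2:**
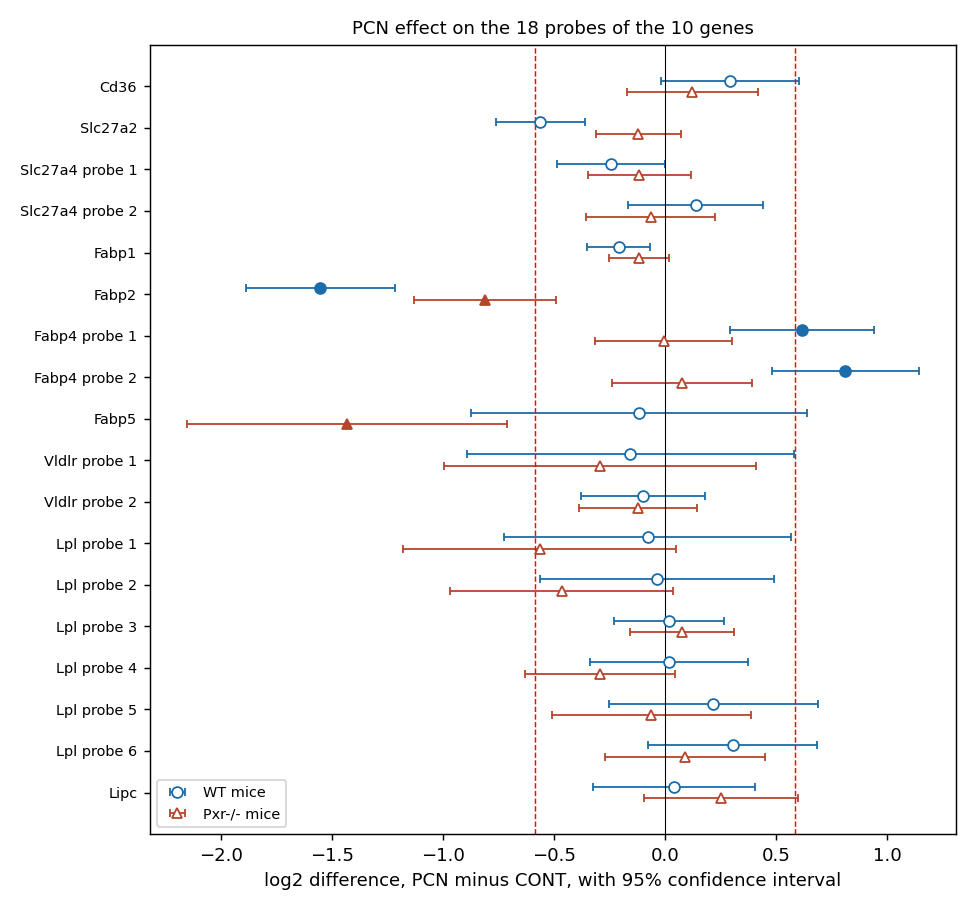
Log2 difference, PCN minus CONT, of each of the 18 probes in WT mice (blue circles) and Pxr-/- mice (red triangles), with 95% confidence intervals. Filled symbols were called, and the dashed lines mark the fold limit of 1.5. Fabp2 lies left of the limit in both genotypes, both Fabp4 probes lie right of it in WT mice, and Fabp5 lies left of it in Pxr-/- mice.

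Among the transporters, Slc27a2 (FATP2), the main very-long-chain acyl-CoA synthetase and fatty acid transporter of hepatocytes, had lower signal after PCN in WT mice but did not pass the fold limit. Its probe lies on chromosome 2 from 126413890 to 126413949. In WT CONT mice the log2 signal ran from 16.03 through a median of 16.24 to 16.51, and the WT PCN mice read 15.50, 15.56, 15.57, 15.95 and 15.98. The highest WT PCN mouse thus lay below the lowest WT CONT mouse. Its log2 change was -0.56 (SE 0.10, limma adjusted p = 2.97e-04), or 1.48-fold lower.

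In Pxr-/- CONT mice Slc27a2 ran from 15.85 through 15.97 to 16.05, and in Pxr-/- PCN mice from 15.66 through 15.85 to 15.99, groups that overlapped widely. The change there was -0.12 (SE 0.09, limma adjusted p = 0.486), and the difference between the PCN effects was -0.44 (95% interval -0.72 to -0.16, unadjusted p = 0.00328, adjusted p = 0.108). The CONT groups were 0.30 apart on the log2 scale, Pxr-/- mice lower (unadjusted p = 0.00327, adjusted p = 0.186). Within the washing batches the WT change was -0.33 and -0.84, with adjusted p of 0.102 and 0.00645, and it passed both limits in the second. With the values normalized by the authors it was -0.32 (adjusted p = 0.0247). Leaving out WT CONT replicate 3 (-0.62) or 5 (-0.59), or WT PCN replicate 1 (-0.61) or 5 (-0.62), carried it past the fold limit.

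Slc27a4 (FATP4), a broadly expressed transporter and acyl-CoA synthetase, had 2 probes on chromosome 2, 579 bases apart, and neither was called in any comparison. Probe 1 moved by -0.24 in WT mice (unadjusted p = 0.0496, limma adjusted p = 0.143) and by -0.12 in Pxr-/- mice (adjusted p = 0.603). Probe 2 moved by 0.14 and -0.07, in the opposite direction in WT mice. It was dim, well above background on 17 of 23 arrays, and the probes did not run together across arrays (r = 0.05).

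The binding proteins gave the clearest changes. Fabp2, the intestinal-type binding protein, which liver also expresses, fell after PCN in both genotypes. Its probe lies on chromosome 3 from 122602276 to 122602335. WT CONT mice ran from 13.81 through a median of 14.07 to 14.72, and the WT PCN mice read 12.43, 12.44, 12.53, 12.83 and 12.88, so the groups did not overlap. The log2 change was -1.55 (SE 0.16, limma adjusted p = 1.09e-06), or 2.93-fold lower, and it was -1.57 and -1.60 within the washing batches.

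In Pxr-/- CONT mice Fabp2 ran from 13.65 through 14.21 to 14.48, and in Pxr-/- PCN mice from 12.96 through 13.30 to 13.70. Only the lowest CONT mouse reached the range of the PCN mice. The log2 change was -0.81 (SE 0.15, limma adjusted p = 0.00394), or 1.76-fold lower. Within the batches it was -0.76 (adjusted p = 0.152) and -0.87 (adjusted p = 0.0564) and was not called in either. The difference between the PCN effects was -0.74 (95% interval -1.20 to -0.28, unadjusted p = 0.00316), which did not pass adjustment over all probes (adjusted p = 0.107).

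The Fabp2 levels of CONT mice differed by -0.04 between genotypes (limma adjusted p = 0.950), and 0 of the 10 genes were called between CONT groups by limma (0.337% of all genes), with 1 probe of 18, that of Slc27a2, at an unadjusted p under 0.05. Among PCN mice, 2 of the 10 genes were called between genotypes, where 2.38% of all genes were. Fabp2 was higher in Pxr-/- mice (0.841% of all genes were called higher) and Fabp4 lower (1.54%). Each Pxr-/- PCN mouse lay above each WT PCN mouse, as was the case in either direction for 6.06% of all probes. The log2 difference was 0.70 (adjusted p = 0.0109). It was 0.47 and 1.00 within the washing batches (adjusted p = 0.270 and 0.0485) and 0.44 with the values normalized by the authors (adjusted p = 0.0512). Fabp2 is best known from enterocytes. Of the 6 enterocyte markers Vil1, Cdx2, Lct, Sis, Alpi and Cdx1, 0 passed the filter, and none was above background on more than 4 of 23 arrays.

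Fabp1, the abundant liver-type binding protein, read on chromosome 6 from 71154906 to 71154965, moved little. WT CONT mice ran from 17.53 through a median of 17.76 to 17.91, and the WT PCN mice read 17.39, 17.46, 17.50, 17.61 and 17.70, which overlapped them. The log2 change was -0.21 (95% interval -0.35 to -0.07, limma adjusted p = 0.03), far from the fold limit, and -0.12 with the values normalized by the authors (adjusted p = 0.251). In Pxr-/- mice it was -0.12 (-0.25 to 0.02, adjusted p = 0.309), and the difference between the effects was -0.09 (-0.29 to 0.10, adjusted p = 0.715). This probe is among the brightest of the array, where the scale can be compressed, but it was saturated on 0 arrays.

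**Figure D3:**
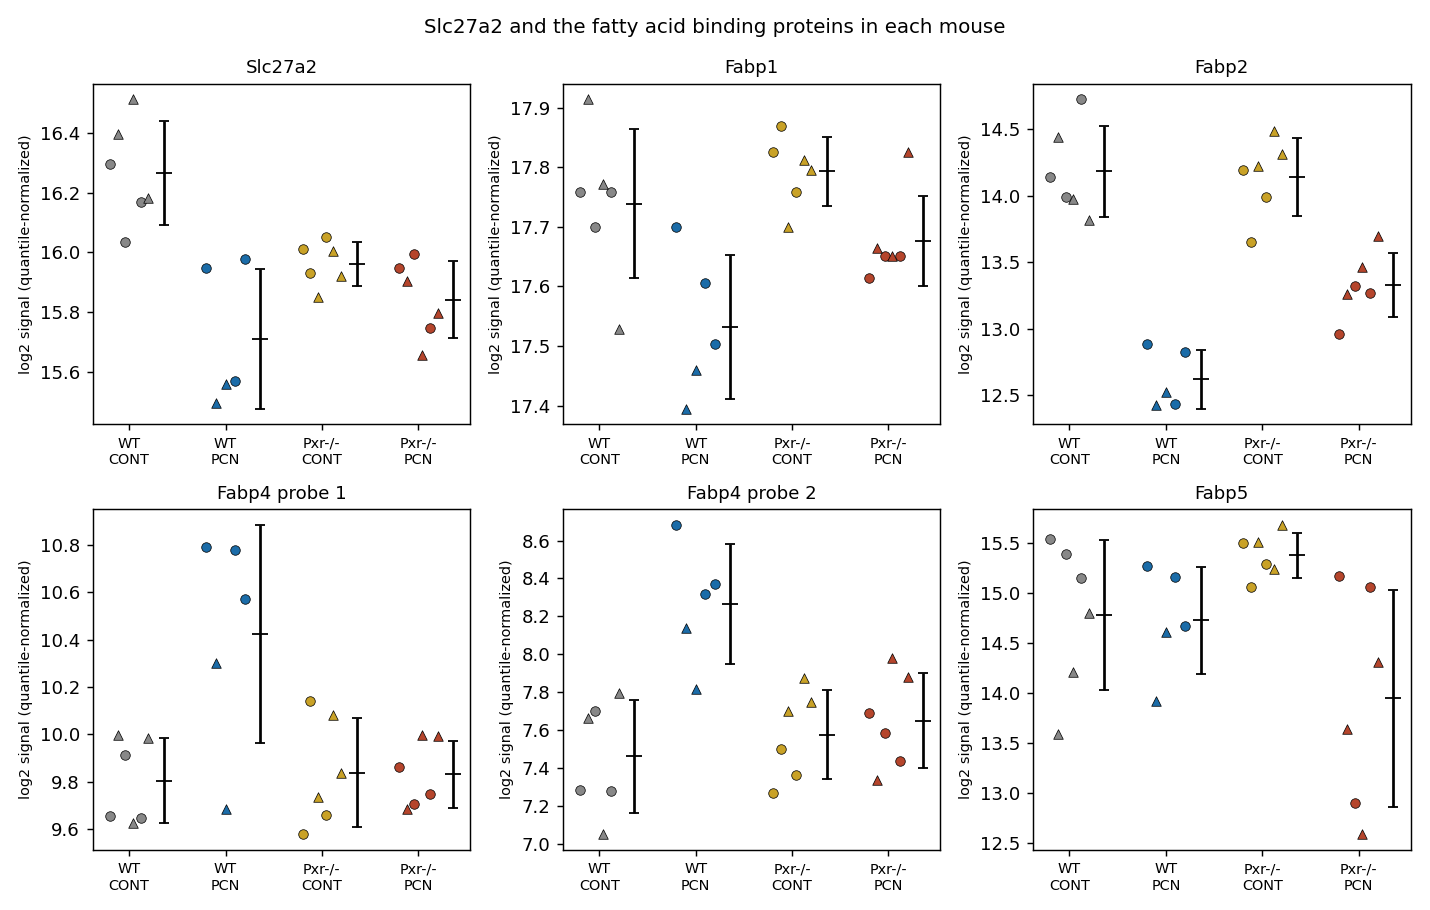
Log2 signal (quantile-normalized, a separate scale in each panel) of Slc27a2, Fabp1, Fabp2, both Fabp4 probes and Fabp5 in each mouse by group, circles for the first and triangles for the second washing batch, with the group mean and SD as bars. WT PCN mice lie below the other groups for Fabp2 and mostly above them for Fabp4, and the Pxr-/- PCN mice are widely spread for Fabp5.

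Fabp4, the adipocyte-type binding protein, also made by macrophages and endothelial cells, rose after PCN in WT mice. Its 2 probes lie on chromosome 3 from 10204452 to 10204511 and from 10208442 to 10208501, and they ran together across the 23 arrays (r = 0.91, rho = 0.85). With probe 1, WT CONT mice ran from 9.62 through a median of 9.79 to 10.00, and the WT PCN mice read 9.68, 10.30, 10.57, 10.78 and 10.79. Of these 5 mice 4 lay above all CONT mice, and replicate 3, at 9.68, lay among them. The log2 change was 0.61 (SE 0.16, limma adjusted p = 0.00678), or 1.53-fold, just past the fold limit. With probe 2, WT CONT mice ran from 7.05 through 7.47 to 7.80, and the WT PCN mice read 7.82, 8.14, 8.32, 8.37 and 8.68, without overlap. This was a change of 0.81 (SE 0.16, adjusted p = 9.73e-04), or 1.75-fold.

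For both Fabp4 probes the Pxr-/- groups overlapped. Probe 1 ran from 9.58 through 9.79 to 10.14 in CONT and from 9.68 through 9.80 to 10.00 in PCN mice, a change of -0.01 (95% interval -0.31 to 0.30, limma adjusted p = 0.987). Probe 2 ran from 7.27 through 7.60 to 7.87 and from 7.33 through 7.64 to 7.98, a change of 0.07 (-0.24 to 0.39, adjusted p = 0.834). The difference between the PCN effects was 0.62 for probe 1 (0.17 to 1.07, unadjusted p = 0.00869, adjusted p = 0.167) and 0.74 for probe 2 (0.28 to 1.19, unadjusted p = 0.00296, adjusted p = 0.104). Without WT PCN replicate 3 these differences were 0.82 and 0.88 and were called (adjusted p = 0.0114 and 0.0353). Among PCN mice, Pxr-/- minus WT was -0.59 and -0.62 (adjusted p = 0.0242 and 0.0198).

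The rise of Fabp4 in WT mice came mostly from the first washing batch. Within it the changes of probes 1 and 2 were 0.97 and 1.04 (limma adjusted p = 0.00191 and 0.00120), and within the second, with 2 WT PCN arrays, 0.12 and 0.48 (adjusted p = 0.756 and 0.252). Among PCN mice the genotypes differed by -0.94 and -0.89 in the first batch (adjusted p = 0.00876 and 0.0105) and by -0.10 and -0.25 in the second (adjusted p = 0.859 and 0.685). For probe 1 the WT change dropped under the fold limit without any one of WT CONT replicates 1 (0.57), 4 (0.58) and 5 (0.57) and WT PCN replicates 1 (0.53), 4 (0.53) and 5 (0.58), with adjusted p between 0.0142 and 0.0236, while probe 2 stayed called without any single array (0.70 to 0.95). The difference between genotypes among PCN mice was lost for probe 2 without WT PCN replicate 1 (-0.51) and without Pxr-/- PCN replicates 2 (-0.55) and 5 (-0.58). For probe 1 it was lost without any one of 9 arrays (-0.58 to -0.50). It was also lost for probe 1 in the fit of the PCN groups alone (-0.57, adjusted p = 0.0646) and for probe 2 with normexp background correction (-0.54, under the fold limit).

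Markers of other cell types were read beside Fabp4. Of 6 adipocyte markers, 4 passed the filter and 0 were called by limma after PCN in either genotype, against 7.07% (WT) and 2.55% (Pxr-/-) of all genes. Adipoq, the defining adipocyte gene, was above background on 0 of 23 arrays and Retn on 6, while Cfd, Lep and Adrb3 were above it on 23 and Plin1 on 16, and the summed level of the 4 genes ran from 9.83 to 10.97 in WT CONT and from 9.63 to 10.40 in WT PCN mice on the log2 scale. Kupffer cell and macrophage markers (11 tested) ran from 15.28 to 16.21 and from 15.09 to 16.73, and endothelial markers (9 tested) from 14.08 to 14.64 and from 13.88 to 14.33, with 0 called in either list. Such sums weigh the brightest genes most. By gene, 8 of the 11 macrophage markers were higher after PCN in WT and 10 in Pxr-/- mice (median 0.12 and 0.23). Of the 9 endothelial markers, 5 were higher in WT and 9 in Pxr-/- mice (median 0.06 and 0.19). Of 8 stellate cell markers, the collagens Col1a1 and Col3a1 rose with their brightest probes. The rise was 3.17 and 2.18 in WT mice and 1.96 and 1.22 in Pxr-/- mice (limma adjusted p = 0.0330 at most). The summed level of the list ran from 14.55 to 15.30 in WT CONT and from 14.95 to 15.40 in WT PCN mice. With these probes both collagens were called in both genotypes, against the same shares of all genes (7.07% and 2.55%). The dimmer Col3a1 probes each rose by 1.00 in WT mice and were called. In Pxr-/- mice they rose by 0.62 and 0.55 (limma adjusted p = 0.0505 and 0.129) and were not called. The other 6 stellate markers were not called, Lrat, Dcn and Colec11 moving by -0.47, -0.02 and -0.06 in WT mice, and the median of the 8 was 0.09. The part of these cell types in the Fabp4 signal was not tested.

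Fabp5, the epidermal-type binding protein, whose gene lies about 188267 bases from Fabp4 on chromosome 3 (probe from 10016185 to 10016244), fell in Pxr-/- mice, with a wide spread. Pxr-/- CONT mice ran from 15.06 through a median of 15.39 to 15.68, and the Pxr-/- PCN mice from 12.58 through 13.98 to 15.18. Of the latter, replicates 1 and 5, at 15.18 and 15.06, lay at the CONT level, while replicates 2, 3 and 4 lay at 13.64, 12.90 and 12.58. The SD was 1.09 in Pxr-/- PCN against 0.23 in Pxr-/- CONT mice. PCN thus moved Fabp5 by -1.43 (SE 0.35, limma adjusted p = 0.0166), or 2.70-fold lower. It was not called within either washing batch (-0.90 and -1.96, adjusted p = 0.425 and 0.0692), in the fit of the Pxr-/- groups alone (adjusted p = 0.0537) or without Pxr-/- PCN replicate 4 (-1.21, adjusted p = 0.0531).

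In WT mice Fabp5 was spread in both groups. WT CONT mice ran from 13.59 through 14.98 to 15.54, and the WT PCN mice read 13.92, 14.61, 14.67, 15.16 and 15.27. The change was -0.12 (95% interval -0.88 to 0.64, limma adjusted p = 0.855), an interval that reaches past the fold limit on both sides. The difference between the PCN effects was 1.31 (0.27 to 2.36, unadjusted p = 0.0161, adjusted p = 0.218). Among PCN mice Pxr-/- minus WT was -0.72 (adjusted p = 0.240), and -1.01 with the values normalized by the authors, which was called (adjusted p = 0.0388).

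Fabp4 and Fabp5 belong to a cluster of binding protein genes on chromosome 3 that also holds Pmp2, Fabp9 and Fabp12. Pmp2, made in myelin, was above background on 0 arrays and Fabp9, known from testis, on 1. For Fabp12, 1 of 2 probes passed the filter, from 10245970 to 10246029, with a log2 signal that averaged 7.07 ± 0.61 (SD, n = 5) for WT PCN, 6.79 ± 0.25 (n = 6) for WT CONT, 6.61 ± 0.43 (n = 6) for Pxr-/- CONT and 6.14 ± 0.17 (n = 6) for Pxr-/- PCN mice. Like Fabp4, Fabp12 was called lower in Pxr-/- than in WT mice among PCN mice (-0.89, limma adjusted p = 0.00682), but its change in WT mice was 0.24 (adjusted p = 0.394).

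The genes of lipoprotein lipid delivery were not called in any comparison. Lpl, the lipase that frees fatty acids from circulating triglycerides, had 6 probes on chromosome 8, numbered by falling signal, and their changes lay between -0.08 and 0.30 in WT mice and between -0.56 and 0.09 in Pxr-/- mice. The lowest limma adjusted p of the 6 was 0.252 in WT and 0.274 in Pxr-/- mice. With probe 1, which lies from 71430267 to 71430326, WT CONT mice ran from 9.56 through 9.97 to 10.71 and the WT PCN mice read 9.57, 9.83, 9.89, 9.96 and 10.72. The Pxr-/- mice ran from 9.29 through 9.72 to 10.99 in CONT and from 8.81 through 9.22 to 10.29 in PCN mice. The change there was -0.56 (95% interval -1.18 to 0.05, adjusted p = 0.278), so a fall past the fold limit lay within the interval.

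The Lpl probes did not read as 1 transcript. Probes 1, 2 and 4, which the array names by the RefSeq transcript of Lpl, ran closely together (r = 0.90 to 0.98). Probes 5 and 6, named by cDNA clones and lying 21924 and 24729 bases from probe 1, ran together (r = 0.89) and less closely with probe 1 (r = 0.53 and 0.50). Probe 3, named by an Ensembl transcript and lying 16956 bases from probe 1, ran apart from all others (r from -0.43 to -0.09). These coefficients describe 23 arrays with the washing batch removed. Probes 4, 5 and 6 were dim, above background on 22, 20 and 22 of the 23 arrays.

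**Figure D4:**
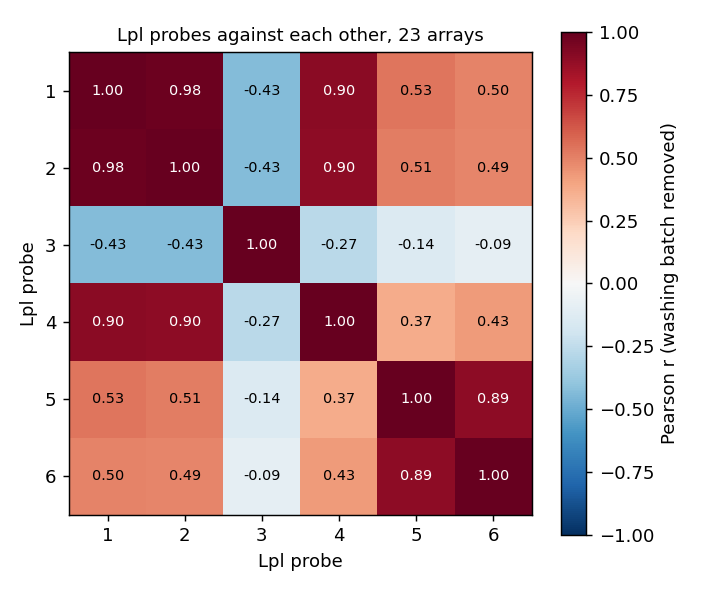
Pearson correlation between the log2 signals of the 6 Lpl probes over the 23 arrays, washing batch removed, with a value in each square and colour from -1 (blue) to 1 (red). Probes 1, 2 and 4 form a group, probes 5 and 6 another, and probe 3 stands apart.

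Vldlr, which binds triglyceride-rich lipoproteins and is low in normal liver, was dim. Probe 1, on chromosome 19 from 27324042 to 27324101, was above background on 22 of 23 arrays and probe 2 on 13. Probe 1 ran from 6.49 through 6.88 to 8.65 in WT CONT mice, read 6.31, 6.53, 6.77, 6.97 and 7.95 in WT PCN mice, and ran from 5.26 through 6.53 to 7.46 in Pxr-/- CONT and from 5.78 through 6.30 to 6.65 in Pxr-/- PCN mice. Its change was -0.16 in WT (95% interval -0.89 to 0.58, limma adjusted p = 0.797) and -0.29 in Pxr-/- mice (-0.99 to 0.41, adjusted p = 0.674). Among PCN mice Pxr-/- minus WT was -0.70 (-1.44 to 0.03, adjusted p = 0.236).

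Lipc, the hepatic lipase, had 1 probe, reading across 70660699 to 70664375 on the minus strand of chromosome 9. It ran from 8.91 through 9.40 to 9.73 in WT CONT mice and read 8.97, 9.38, 9.53, 9.57 and 9.67 in WT PCN mice. The Pxr-/- mice ran from 8.67 through 9.51 to 9.77 in CONT and from 9.31 through 9.66 to 9.93 in PCN mice. The changes were 0.04 (95% interval -0.33 to 0.40, limma adjusted p = 0.905) and 0.25 (-0.10 to 0.60, adjusted p = 0.409).

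Other genes of the pathway were read by list. Of 11 other transporters and binding proteins tested (13 listed), 0 were called after PCN in either genotype, against 7.07% and 2.55% of all genes. The brightest of them were Dbi, the acyl-CoA binding protein (0.00 in WT, limma adjusted p = 0.987, and -0.27 in Pxr-/- mice, adjusted p = 0.00693), and Slc27a5, the bile acid and fatty acid transporter FATP5 (0.09 and 0.21, adjusted p = 0.341 and 0.0552). Of 4 acyl-CoA synthetases tested (7 listed), which trap fatty acids in the cell, 0 were called. With its brightest probe Acsl1, the main hepatic form, moved by -0.52 in WT (adjusted p = 0.00576) and 0.17 in Pxr-/- mice (adjusted p = 0.472), under the fold limit. Its dimmer probes moved by -0.49 and -0.24 in WT mice (adjusted p = 0.00834 and 0.442). The brighter Acsl5 probe moved by 0.46 in WT (adjusted p = 0.0333) and 0.19 in Pxr-/- mice. The dimmer Acsl5 probe tested moved by 0.01 (adjusted p = 0.963) and 0.17 (adjusted p = 0.465).

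Among the 11 cofactors and inhibitors of lipoprotein lipase tested, 2 were called lower in WT mice (2.83% of all genes were), none higher, and 0 were called in Pxr-/- mice (2.55% of all genes were). Apoa5, an activator of lipoprotein lipase, fell by 0.87 and 0.97 with its 2 probes, and the difference between the PCN effects was called for the dimmer one (-0.83, limma adjusted p = 0.0362) and not for the brighter (-0.52, adjusted p = 0.0519). In Pxr-/- mice the brighter Apoa5 probe moved by -0.35 (adjusted p = 0.0261), under the fold limit, and the dimmer by -0.13 (adjusted p = 0.628). Sel1l, which helps the lipase leave the endoplasmic reticulum, fell by 0.63 in WT mice with its brightest probe (adjusted p = 4.39e-05). Its other 2 probes moved by -0.29 and -0.47 (adjusted p = 0.163 and 0.00989) and were not called. The values that follow are also from WT mice. The brightest members, Apoc1 and Apoc3, which slow lipolysis, moved by -0.05 and -0.17 with their brightest probes (adjusted p = 0.561 and 0.0843). The dimmer Apoc3 probes moved by -0.37 and -0.36 (adjusted p = 0.00495 and 0.0329), under the fold limit. Apoc2, the required cofactor of the lipase, moved by -0.43 (adjusted p = 0.0667), and Angptl4, its inhibitor, by -0.37 (adjusted p = 0.497). Gpihbp1, which anchors the lipase to capillaries, moved by 0.27 (adjusted p = 0.163).

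Of 12 other lipases and lipoprotein receptors tested, 2 were called lower in WT mice, beside 2.83% of all genes, and 0 were called in Pxr-/- mice, beside 2.55%. Sort1, a sorting receptor for lipoproteins and for Lpl, fell by 0.65 with its brightest probe (limma adjusted p = 0.00782), while its other 2 probes moved by -0.0073 and -0.27 (adjusted p = 0.976 and 0.0347) and were not called. Lipg, the endothelial lipase, fell by 0.80 and 0.81 with its 2 probes (adjusted p = 0.0245 and 0.00924), and in WT PCN mice each of these was above background on 1 of 5 arrays. In Pxr-/- mice the same probes moved by -0.73 and -0.68 (limma adjusted p = 0.0693 and 0.05002), which was not called. The differences between the PCN effects were -0.07 and -0.13 (adjusted p = 0.954 and 0.893). Lsr, the lipolysis-stimulated lipoprotein receptor, moved by 0.52 (adjusted p = 6.12e-04), under the fold limit.

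Among 9 receptors and other transcription factors known to act on Cd36, Ppara alone was called in WT mice (-1.05 with its brighter probe), beside 7.07% of all genes. Its difference between the PCN effects was called with both probes (-0.87 and -0.73, limma adjusted p = 8.82e-04 and 0.0174), beside 1.17% of all genes. Among PCN mice it was called higher in Pxr-/- mice (0.76 and 0.71), beside 0.841% of all genes. In Pxr-/- mice 1 of the 9 was called higher and 1 lower after PCN, beside 2.55% of all genes. The aryl hydrocarbon receptor Ahr rose in Pxr-/- mice by 0.92 with its brighter probe (limma adjusted p = 0.00376) and moved by 0.20 with the dimmer (adjusted p = 0.327). In WT mice its brighter probe moved by 0.43 (adjusted p = 0.0964). For Nfe2l2, the dimmer probe fell by 0.66 in Pxr-/- mice (adjusted p = 0.00451), while the brighter moved by -0.06 (adjusted p = 0.796). The dimmer probe also fell by 0.57 in WT mice (adjusted p = 0.00362), under the fold limit. Its difference between the PCN effects was 0.09 (adjusted p = 0.885). Pparg, a known inducer of Cd36 in fatty liver, moved by 0.00 in WT and -0.09 in Pxr-/- mice, and the liver X receptor Nr1h3 by -0.24 and 0.03. The brighter probe of Rxra, the partner of these receptors, moved by -0.40 in WT mice (adjusted p = 2.71e-04), under the fold limit. The dimmer Rxra probe moved by 0.11 there (adjusted p = 0.426). Nr1i2 itself was read by 1 probe that did not separate the genotypes (-0.03 in CONT mice, adjusted p = 0.977). Whether this probe lies in the deleted part was not given in the sources used here, so it does not check the labels. All 9 hepatocyte markers tested were above background on 23 of 23 arrays. By any probe, Apoa1 was called higher after PCN in Pxr-/- mice, Ttr for the difference between the PCN effects, and Ttr and Tat between genotypes among PCN mice. Over all genes, 2.55%, 1.17% and 2.38% were called in these 3 comparisons.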

How the data were processed

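Liver RNA of 23 mice was read on 1-colour Agilent arrays (8 slides). The deposited scanner files, made by the authors with Agilent Feature Extraction 10.10.1.1, hold each spot's intensity (linear, not normalized between arrays). The authors also deposited log2 values, corrected for washing batch and normalized with CrossNorm. Here, log2 median signals were used, outlier spots were set to missing, and spots of a probe were averaged. Probes were kept, and quantile normalized, if over 50% of the arrays in some group read them well above background. Limma 3.58.1 in R 4.3.3 was fitted to all arrays with terms for group and washing batch (18 residual degrees of freedom). The fit was also run on data simulated from each probe's own mean and residual SD. Each array is 1 mouse, so p-values measure the spread between mice, and the number of arrays limits the precision. Groups, replicate numbers and washing batch came from the labels. Alternatives covered background, normalization, filter, batch, slide, replicate block and each array left out. Named genes were the 10 genes, called genes of the pathway lists, up to 2 uncalled genes of highest signal per list, and the 5 genes most like Cd36. Apoc2, Angptl4, Gpihbp1, Pparg and Nr1h3, and the neighbours of Fabp4, were named for their roles after their values were seen. The genes and lists were chosen with earlier results of these data known. RefSeq promoters were searched for motifs.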

Additional observations from a re-analysis of the deposited data

Results flagged for a closer look

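In 72 groups of values (18 probes in 4 groups of 5 or 6 mice), 6 held a mouse far from the others of its group, where chance gives about 1 in 20. Probe 1 of Slc27a4 read 7.25 in WT PCN replicate 3, with the nearest mouse at 6.71. Probe 2 of Slc27a4 read 6.26 in Pxr-/- PCN replicate 3 (nearest 5.45). Fabp1 read 17.83 in Pxr-/- PCN replicate 6 (nearest 17.67). Probe 1 of Vldlr read 8.65 in WT CONT replicate 2 (nearest 6.97). Probe 2 of Lpl read 8.37 in WT PCN replicate 4 (nearest 7.74). Lipc read 8.67 in Pxr-/- CONT replicate 2 (nearest 9.40). None of these genes was called in any comparison.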

How the results depend on the processing

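The 55 results followed here came from the brightest probe of each of the 10 genes and from probe 2 of Fabp4. The further probes of Slc27a4, Vldlr and Lpl were left out of this tally. Over 35 alternatives, the 55 results gave 1914 values. Of these, 1818 kept their direction and their side of the threshold, 32 lost a call, 8 gained one and 56 changed sign, with 0 of the last among called results. The limits are the number of arrays and the 2 WT PCN arrays in the second washing batch. Signal was also dim for Slc27a4 probe 2, both Vldlr probes and Lpl probes 4, 5 and 6. The number of genes called in WT mice was 4 with no fold limit (chosen after seeing the data) and 2 to 3 with single arrays left out. In Pxr-/- mice it was 1 with only the groups compared, 0 in washing batch 1, 0 in batch 2, and 1 to 2 with single arrays left out (1 without Pxr-/- PCN replicate 4). For the difference between PCN effects it was 0 to 1 (1 without WT PCN replicate 3). Between genotypes in PCN mice it was 1 in batch 1, 1 in batch 2, and 1 to 2 with single arrays left out (1 without WT PCN replicate 1 or Pxr-/- PCN replicate 2 or 5). Beyond the fewer samples in these fits, the cause was not tested.

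None of the following sign changes touched a called result. In washing batch 1, the WT change was 0.18 for Vldlr probe 1, 0.25 for Lpl probe 1 and -0.14 for Lipc, the Pxr-/- change of Slc27a4 probe 1 was 0.14, the difference between PCN effects was 0.043 for Fabp1, and the CONT genotype difference was -0.044 for Fabp4 probe 2, -0.077 for Fabp5, 0.55 for Lpl probe 1 and -0.28 for Lipc. In washing batch 2, the Pxr-/- change was -0.073 for Cd36, 0.0071 for Fabp4 probe 1 and -0.043 for Fabp4 probe 2, the WT change of Fabp5 was 0.062, the difference was 0.31 for Slc27a4 probe 1, -0.30 for Vldlr probe 1, -0.052 for Lpl probe 1 and 0.18 for Lipc, and the CONT genotype difference of Fabp2 was 0.26. With the deposited values, the WT change was 0.14 for Fabp5 and 0.071 for Lpl probe 1, the Pxr-/- change of Fabp4 probe 1 was 0.036, the CONT genotype difference was -0.021 for Fabp1, -0.11 and -0.011 for Fabp4 probes 1 and 2 and -0.10 for Lipc, and the PCN genotype difference was -0.13 for Slc27a2 and -0.0045 for Lipc. With processed signals the CONT genotype difference of Fabp2 was 0.028.

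With single arrays left out, the WT change ran from -0.29 to 0.0020 for Fabp5, from -0.45 to 0.12 for Vldlr probe 1, from -0.24 to 0.075 for Lpl probe 1 and from -0.058 to 0.15 for Lipc. The Pxr-/- change of Fabp4 probe 1 ran from -0.068 to 0.051 and the difference of Vldlr probe 1 from -0.15 to 0.42. The CONT genotype difference ran from -0.13 to 0.083 for Fabp2, from -0.024 to 0.10 for Fabp4 probe 1, from -0.28 to 0.077 for Lpl probe 1 and from -0.071 to 0.19 for Lipc.

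Of 33 pairs of arrays with the same replicate number in different groups, 13 had deviations correlated over 0.1 (-0.17 to 0.61, median 0.003). Among arrays of other groups, 7 of 23 arrays correlated best with their own number. Pairs of unlike number were not set beside these, so whether the numbers mark paired mice was not tested. With the replicate block, 2, 2, 0, 0 and 2 genes were called in the 5 comparisons, and the WT change of Cd36 was 0.30 (limma adjusted p = 0.224). The comparison of Cd36 probes was not run because the array has 1.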

Other observations

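In 3 of the 4 groups the mouse with the highest signal of Vldlr probe 1 also had the highest signal of Lpl probe 1 and the lowest of Lipc. WT CONT replicate 2 read 8.65 for Vldlr, 10.71 for Lpl and 8.91 for Lipc. WT PCN replicate 4 read 7.95, 10.72 and 8.97, and Pxr-/- CONT replicate 2 read 7.46, 10.99 and 8.67, in the same order. Among Pxr-/- PCN mice the highest Vldlr reading was 6.65 in replicate 3, the highest Lpl reading 10.29 in replicate 1 and the lowest Lipc reading 9.31 in replicate 5. The pattern was noticed in these values and was not tested.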
